A study of Mus musculus with 8 samples.

Results

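The 10 genes described here encode chemokines and cytokines that macrophages make: the chemokines Ccl2, Ccl3, Ccl4, Ccl7, Ccl9, Cxcl2 and Cxcl16, the cytokine Tnf, the interleukin-1 receptor antagonist Il1rn and Spp1, the gene of osteopontin. They were found by their symbols in a table of 22063 genes, and all 10 were present. RNA-seq was compared between 4 libraries labelled as control and 4 labelled as control with tranilast, an anti-allergic drug. The methods describe male C57BL/6J mice that received tranilast by mouth or its vehicle Na-CMC, and the labels name no route. The sources differ on the diet: the series design sets HFHC (high-fat high-cholesterol) feeding against HFHC feeding with tranilast, whereas the methods call mice on normal chow the control group and describe the drug on either diet. The labels give all 8 samples as liver of WT genotype, and name no diet, dose, batch or animal, so the diet of the libraries labelled as control is taken from the series design only. The methods describe more than 1 dose and do not name that of the sequenced samples. Nothing in the labels says that the libraries came from separate animals, so the p-values measure only the spread between these samples, which may be technical.

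Chemokines are small secreted proteins that guide leukocytes along a gradient by binding G protein-coupled receptors. The CC family acts mainly on monocytes, macrophages and lymphocytes, and Cxcl2 acts mainly on neutrophils through Cxcr2. Tnf is an early inflammatory cytokine of macrophages, and Il1rn blocks interleukin-1 by occupying its receptor without signalling. Osteopontin is a secreted matrix and cytokine protein that binds integrins and Cd44. In fatty liver, Ccl2 is known for drawing monocytes into the tissue, and Tnf and osteopontin for their part in inflammation and scarring.

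The libraries held between 12053036 and 15618787 counts. Scaling factors of the TMM method, which corrects for composition, ran from 0.956 to 0.965 for control and from 1.037 to 1.045 for tranilast. Values below are CPM, which scale a gene's counts to a fixed library total, after that scaling unless another unit is given, and fold changes are tranilast over control. The labelled tissue was checked against its markers. No library gave more than 0.000191% of its counts to the 8 hepatocyte markers present, and Alb, serum albumin, had at most 2 counts. The Kupffer cell genes Clec4f, Vsig4 and Timd4 had 0 counts in all 8 libraries. Counts of the 14 general macrophage markers made up 1.05% to 1.11% of a control library and 1.03% to 1.10% of a tranilast library, led by Lyz2, the lysozyme of myeloid cells, and by Csf1r, the receptor for macrophage colony-stimulating factor. Neutrophil markers made up at most 1.5e-05% and T, NK and B cell markers at most 4.1e-05% of a library. Of the 14 macrophage markers, Mertk, Mrc1, Marco and Cd163 had at most 3 counts in any library. The data therefore went against the label of liver tissue, and the samples are called libraries here. In such bulk RNA, fewer cells of a type and less RNA per cell cannot be told apart.

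Ccl9, Ccl3 and Ccl4 lie together in a cluster of CC chemokine genes on chromosome 11. Ccl2 and Ccl7 lie on the same chromosome among other CC chemokine genes, across a gap of 1220 kb. On GRCm38 with GENCODE M21, Ccl9 spans chr11:83572919-83578636 and Ccl3 chr11:83647844-83649355, both on the minus strand, and Ccl4 spans chr11:83662584-83664683 on the plus strand. Ccl3 and Ccl4 are 13.2 kb apart and head to head. Cxcl2 lies at chr5:90903871-90905938. Ccl3, Ccl9 and Cxcl2 are shown by sequence because, as the values below give, Ccl3 and Cxcl2 were higher and Ccl9 was lower with tranilast. Ccl4 was higher too, and no promoter was matched for it. The promoters of Ccl3 (chr11:83649329-83649628, minus strand), Ccl9 (chr11:83578587-83578886, minus strand) and Cxcl2 (chr5:90903649-90903948, plus strand) run from 250 bases before to 50 bases after the start, as RefSeq gives them on GRCm38.p6. Capitals mark matches, on either strand, to the NF-kappa-B consensus, to the TATA box TATAAA and to the AP-1 site TGANTCA.
Ccl3: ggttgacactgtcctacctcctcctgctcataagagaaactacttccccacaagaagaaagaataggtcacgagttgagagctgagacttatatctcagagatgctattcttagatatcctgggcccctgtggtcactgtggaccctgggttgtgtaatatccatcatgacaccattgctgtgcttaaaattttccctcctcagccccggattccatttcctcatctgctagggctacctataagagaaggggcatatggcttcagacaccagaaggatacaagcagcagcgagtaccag
Ccl9: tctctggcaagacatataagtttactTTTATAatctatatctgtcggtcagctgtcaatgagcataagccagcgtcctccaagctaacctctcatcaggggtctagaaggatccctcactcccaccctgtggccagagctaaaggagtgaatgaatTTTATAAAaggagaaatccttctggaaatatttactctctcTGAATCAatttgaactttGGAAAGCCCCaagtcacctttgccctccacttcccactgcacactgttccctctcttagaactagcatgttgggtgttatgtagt
Cxcl2: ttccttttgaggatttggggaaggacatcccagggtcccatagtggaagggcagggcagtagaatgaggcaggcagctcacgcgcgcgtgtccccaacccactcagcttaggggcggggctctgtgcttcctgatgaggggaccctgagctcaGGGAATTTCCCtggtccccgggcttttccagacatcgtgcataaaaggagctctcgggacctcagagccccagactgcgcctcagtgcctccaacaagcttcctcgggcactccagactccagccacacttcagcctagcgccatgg
The NF-kappa-B consensus, bound by the factor that switches on many inflammatory genes, was in 8.46% of the 32851 promoters of that length, the TATA box in 13.6% and the AP-1 site in 7.81%. Cxcl2 held the consensus at position -97, in overlapping matches on both strands, and Ccl9 held it at -35 on the minus strand. A match in such a short window, or its absence, does not show whether the factor binds, which was not measured. The part of these matches in the differences was not tested. Ccl9 also held the AP-1 site at -53 and TATAAA at -92 and, on the minus strand, at -224, the former where it overlapped a match on the other strand at -94. The letters searched for were not in the window of Ccl3. RefSeq promoters were matched for 6 of the 10 genes, and not for Ccl2, Ccl4, Ccl7 and Cxcl16. The windows of Tnf, Il1rn and Spp1, not shown, held no match to the NF-kappa-B consensus. Tnf held TATAAA at -29 and Spp1 at -211 of start site 1. Il1rn held the AP-1 site at -141 of start site 1 and, on the minus strand, the TATA box at 15 of start site 3.

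AU-rich elements are short motifs in the 3' untranslated region (UTR) that mark many cytokine mRNAs for rapid decay. The nonamer TTATTTATT was in the longest annotated 3' UTR of 8.39% of 10657 tested genes, and in 2 of the 10 genes here, Cxcl2 with 4 matches and Tnf with 5. The first match in each is shown with its flanks and with U written as T. Capitals mark the nonamer, which in Tnf is followed by an overlapping second match.
Cxcl2: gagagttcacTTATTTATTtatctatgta
Tnf: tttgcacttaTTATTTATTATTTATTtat
The shorter core ATTTA occurred 12.2 times per kb in Ccl3, 10.5 in Tnf, 7.36 in Cxcl2 and 6.62 in Ccl4, against a median of 1.34 per kb over the tested genes. Il1rn held no ATTTA in 1864 bases. Besides Tnf, the lower genes Spp1, Ccl2, Ccl9 and Cxcl16 had 4.63, 3.64, 2.03 and 1.41 per kb. Genes that were higher and genes that were lower with tranilast thus both held the core. It was denser in the higher genes Ccl3, Cxcl2 and Ccl4 than in Spp1, Ccl2, Ccl9 and Cxcl16. Tnf, which was lower, went the other way, with a density above those of Cxcl2 and Ccl4. The part of the core in the differences was not tested.

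Tranilast was compared with control for each gene across the whole table. Of the 10 genes, 9 passed the filter on low counts, and Ccl7 did not. At an adjusted p-value under 0.05 (quasi-likelihood test of edgeR, adjusted after Benjamini and Hochberg over 10770 genes), 8 of the 9 differed. Ccl3, Ccl4 and Cxcl2 were higher with tranilast, and Ccl9, Cxcl16, Tnf, Spp1 and Ccl2 were lower. The call of Ccl2 differs from the others in that the gene passed the filter through its control libraries and that 1 of them carried the call, as given below. Over all tested genes 57% passed the same threshold, 28.2% as higher and 28.8% as lower, so a call by itself was common in this comparison. The groups did not overlap for 7 of the 9 genes, against 49.8% of all tested genes. The threshold of an absolute log2 fold change of 1.5 that the methods name was met by 0 of the 10 genes and by 120 of the called genes of the table.

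**Figure D1:**
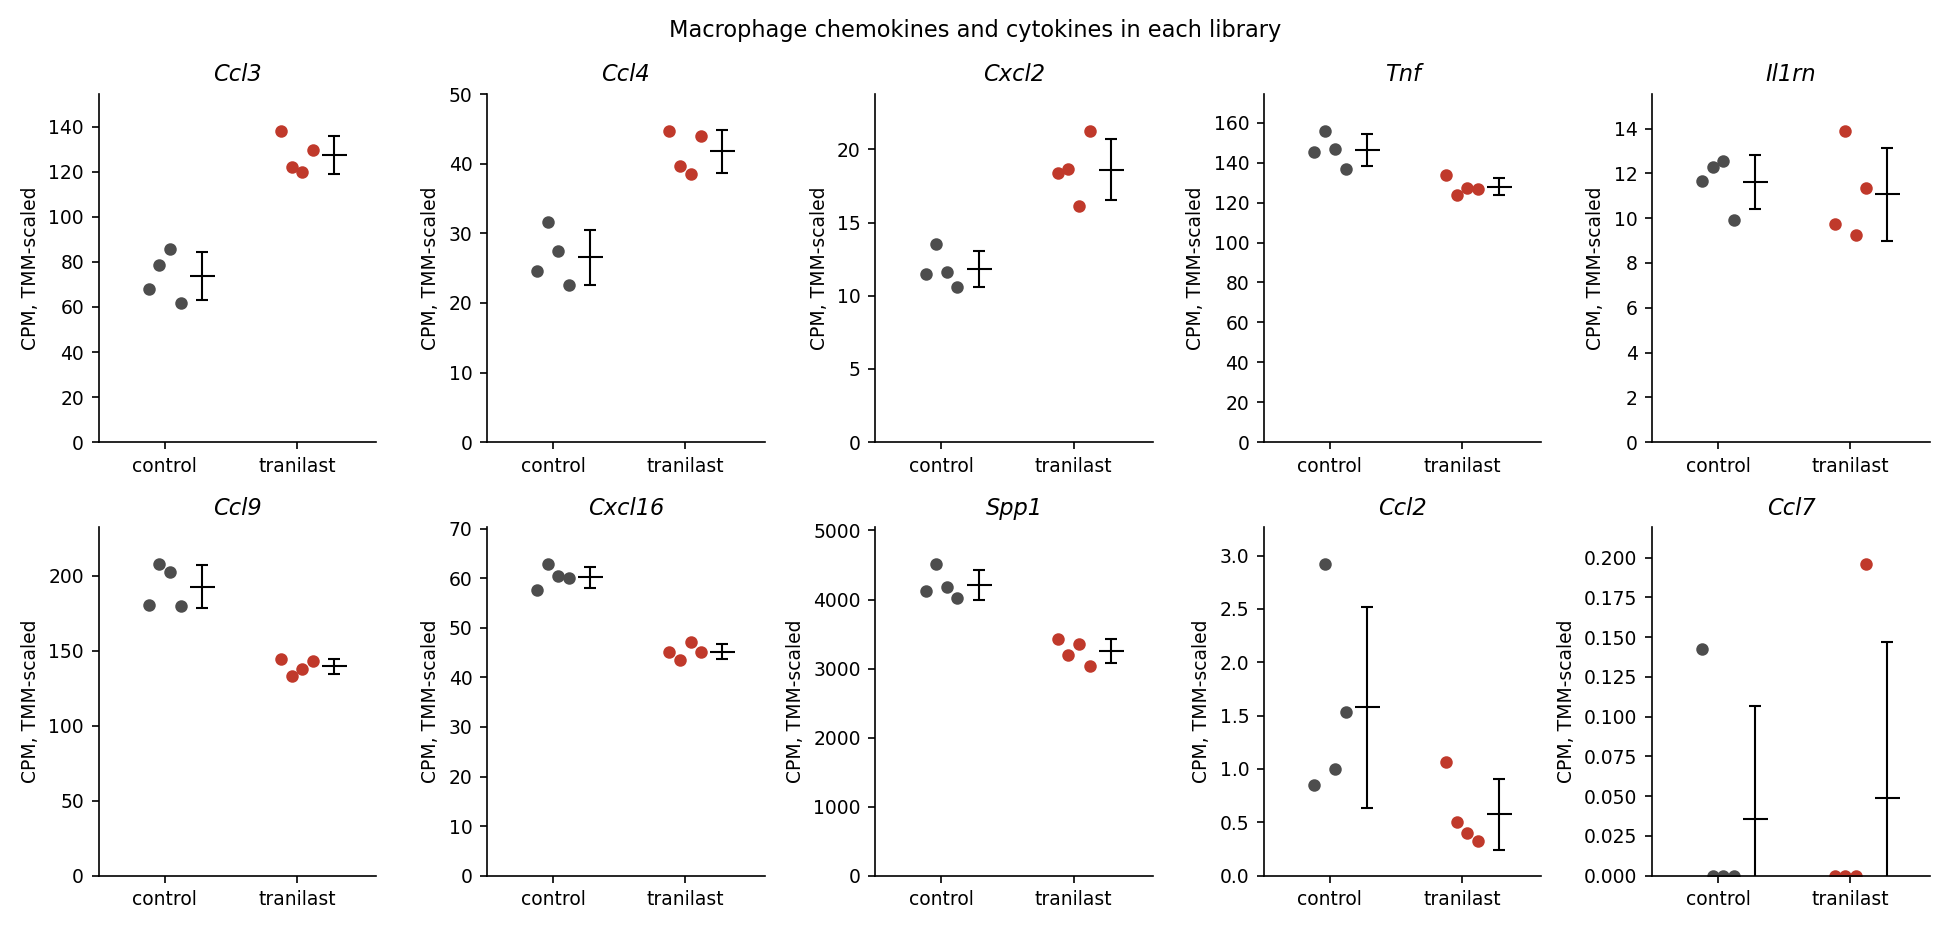
CPM after TMM scaling (y axis, from 0) of the 10 genes in the 4 control libraries (grey) and the 4 tranilast libraries (red), each point a library, with the mean and SD beside them. Ccl3, Ccl4 and Cxcl2 lay higher in every tranilast library, Ccl9, Cxcl16, Spp1 and Tnf lay lower, and Il1rn, Ccl2 and Ccl7 overlapped; the SD bars of Ccl7 reach below the axis.

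Among the chemokines, Ccl3 differed the most of those that were higher. Ccl3, also called MIP-1 alpha, attracts monocytes and T cells, in part through Ccr1. It was measured at 68.1, 78.7, 85.9 and 62.0 CPM in control libraries 1 to 4 and at 138, 122, 120 and 130 CPM in tranilast libraries 1 to 4. Every tranilast library was above every control library. The fold change was 1.73, with a 95% interval of 1.55 to 1.93, and the log2 fold change was 0.79 (SE 0.074, edgeR adjusted p = 5.3e-08). Of the tested genes, 93.2% had a smaller absolute log2 fold change.

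Ccl4, or MIP-1 beta, is the close relative and neighbour of Ccl3. Its level was 24.6, 31.6, 27.5 and 22.5 CPM in the control libraries and 44.7, 39.7, 38.6 and 44.0 CPM in the tranilast libraries. Both groups were again separate. The fold change was 1.57 (log2 0.65, SE 0.086, edgeR adjusted p = 3.8e-06). The count of Ccl3 divided by that of Ccl4 within a library, which needs no scaling, ran from 2.49 to 3.12 in control and from 2.95 to 3.10 in tranilast. This ratio overlapped between groups.

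Cxcl2, or MIP-2, recruits neutrophils and is among the genes that the study followed by qPCR in liver. Control libraries held 11.5, 13.5, 11.6 and 10.6 CPM and tranilast libraries 18.4, 18.7, 16.1 and 21.3 CPM. The lowest tranilast library was above the highest control library. It rose 1.58-fold (log2 0.66, SE 0.10, edgeR adjusted p = 3.0e-05).

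Ccl9, or MIP-1 gamma, is a chemokine that myeloid cells express at a steady level and that binds Ccr1. It was at 181, 208, 203 and 180 CPM in the control libraries and at 145, 133, 138 and 143 CPM in the tranilast libraries. Every tranilast library was below every control library. The log2 fold change was -0.46 (SE 0.047, edgeR adjusted p = 1.3e-07), and -0.35 with library size alone as the scaling. Within each library, the count of Ccl3 was 0.381 ± 0.033 times that of Ccl9 in the control and 0.911 ± 0.037 times in the tranilast libraries (SD, n = 4 each). A gene that was higher over a gene that was lower gives a ratio that must separate the groups, so the ratio is a description, free of scaling, and no test of its own. These genes have Ccl6 between them, 9.25 kb from Ccl9 and 54.8 kb from Ccl3, and the ratio was 2.40 times as high with tranilast.

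Cxcl16 is a chemokine made as a membrane protein, which also takes up oxidized lipoprotein, and its receptor is Cxcr6. Control libraries held 57.5, 62.8, 60.4 and 60.0 CPM and tranilast libraries 45.1, 43.5, 47.2 and 45.1 CPM. The groups were separate, with a log2 fold change of -0.41 (SE 0.048, edgeR adjusted p = 9.0e-07). On log2 FPKM with 1 added the difference was -0.23 (limma adjusted p = 7.0e-03). Cxcl16 overlaps Zmynd15 on the other strand, which had 29 to 55 counts in the control and 10 to 35 in the tranilast libraries, against 591 to 904 of Cxcl16. The ratio of Cxcl2 to Cxcl16 counts was 0.196 ± 0.016 in the control and 0.413 ± 0.054 in the tranilast libraries (SD, n = 4 each).

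Ccl2, or MCP-1, is the main signal that brings Ccr2-bearing monocytes into inflamed tissue. It had few reads, 12, 42, 15 and 22 counts in the control and 15, 7, 5 and 5 counts in the tranilast libraries. Control library 2 stood above the rest, and tranilast library 1 lay within the control range. The log2 fold change was -1.44 (SE 0.46, edgeR adjusted p = 0.0123), and the exact two-sided permutation test of the 8 libraries gave p = 0.0857. Without control library 2 the log2 fold change was -0.97 and the edgeR adjusted p was 0.0842, so the call rested on that library. The gene passed the filter on low counts through the control group. Ccl2 overlaps Gm17268 on the other strand, which had 0 counts.

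Ccl7, or MCP-3, is the neighbour of Ccl2, 8.26 kb away, and binds Ccr1 and Ccr2. It had 2, 0, 0 and 0 counts in the control and 0, 0, 0 and 3 counts in the tranilast libraries. Since 3 counts are the most that a count of 0 allows, equal to 0.192 to 0.249 CPM without TMM scaling, both groups were at or under that limit. No difference was detectable at this depth.

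Tnf was the cytokine with the smallest called difference. It was at 146, 156, 147 and 137 CPM in the control and at 134, 124, 128 and 127 CPM in the tranilast libraries. The groups were separate by a narrow margin, with a log2 fold change of -0.19 (SE 0.042, edgeR adjusted p = 6.9e-04). With library size alone as the scaling, the groups overlapped and the log2 fold change was -0.08 (edgeR adjusted p = 0.115). Of the tested genes, 46.8% had a smaller absolute log2 fold change than Tnf. The ratio of Ccl3 to Tnf counts was 0.503 ± 0.059 in the control and 0.995 ± 0.042 in the tranilast libraries, and that of Cxcl2 to Tnf counts was 0.0807 ± 0.0042 and 0.146 ± 0.018 (SD, n = 4 each).

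Il1rn, the antagonist, had 164, 177, 188 and 142 counts in the control and 137, 192, 116 and 174 counts in the tranilast libraries. Tranilast library 2 was the highest of all 8 and tranilast library 3 the lowest. The log2 fold change was -0.07 (95% interval -0.34 to 0.20, edgeR adjusted p = 0.674), and its sign turned with library size alone, with upper-quartile factors and on the FPKM scale. The interval leaves room for a rise about as large as the fall of Tnf, and for a fall nearly as large as that of Spp1. The coefficient of variation was 10.3% in the control and 18.9% in the tranilast libraries.

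Spp1 was by far the most abundant of the 10 genes. Its level was 4121, 4509, 4189 and 4022 CPM in the control and 3430, 3201, 3353 and 3030 CPM in the tranilast libraries. All tranilast libraries were below all control libraries, with a log2 fold change of -0.37 (SE 0.035, edgeR adjusted p = 4.8e-08), which is a fall of 22.7%. With library size alone as the scaling, the log2 fold change was -0.26. Spp1 gave between 85.3% and 89.3% of the summed counts of the 10 genes. The 10 genes summed to 0.433% to 0.485% of a control library and to 0.371% to 0.411% of a tranilast library. Without Spp1 the other 9 genes summed to 464.7 to 540.7 CPM without TMM scaling in control and to 516.3 to 555.2 CPM in tranilast, and the groups overlapped. The ratio of Spp1 to Ccl9 counts, genes that both were lower, was 21.9 ± 0.91 and 23.3 ± 1.42 (SD, n = 4 each), and the groups overlapped.

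**Figure D2:**
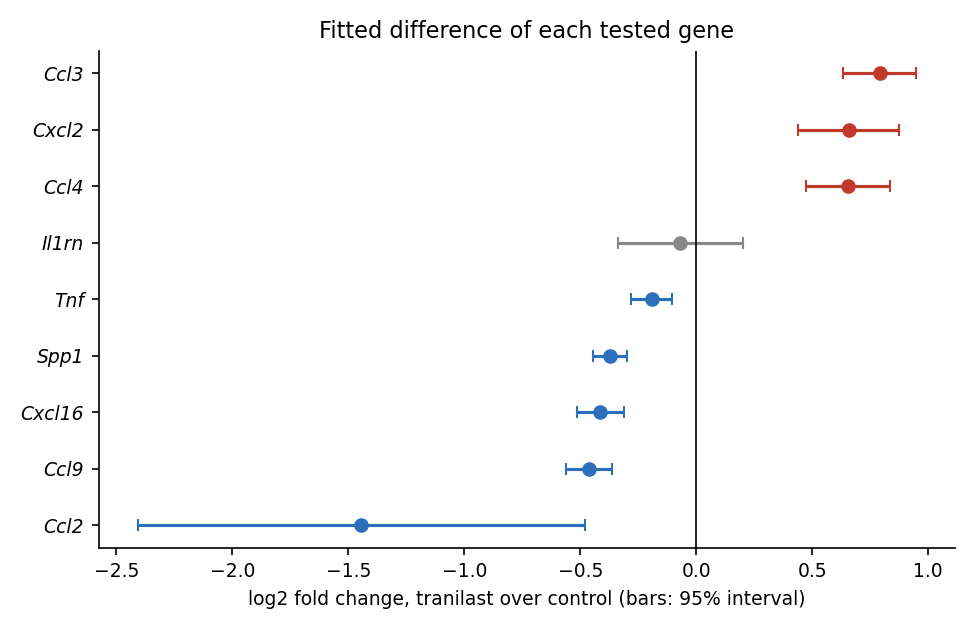
Log2 fold change of tranilast over control (x axis) of the 9 tested genes with the 95% interval of the edgeR fit (bars), higher genes in red, lower genes in blue and Il1rn, which did not pass, in grey. Ccl3 sat at 0.79, Ccl4 at 0.65, Cxcl2 at 0.66, and Ccl2 at -1.44 had the widest interval, from -2.41 to -0.48.

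**Figure D3:**
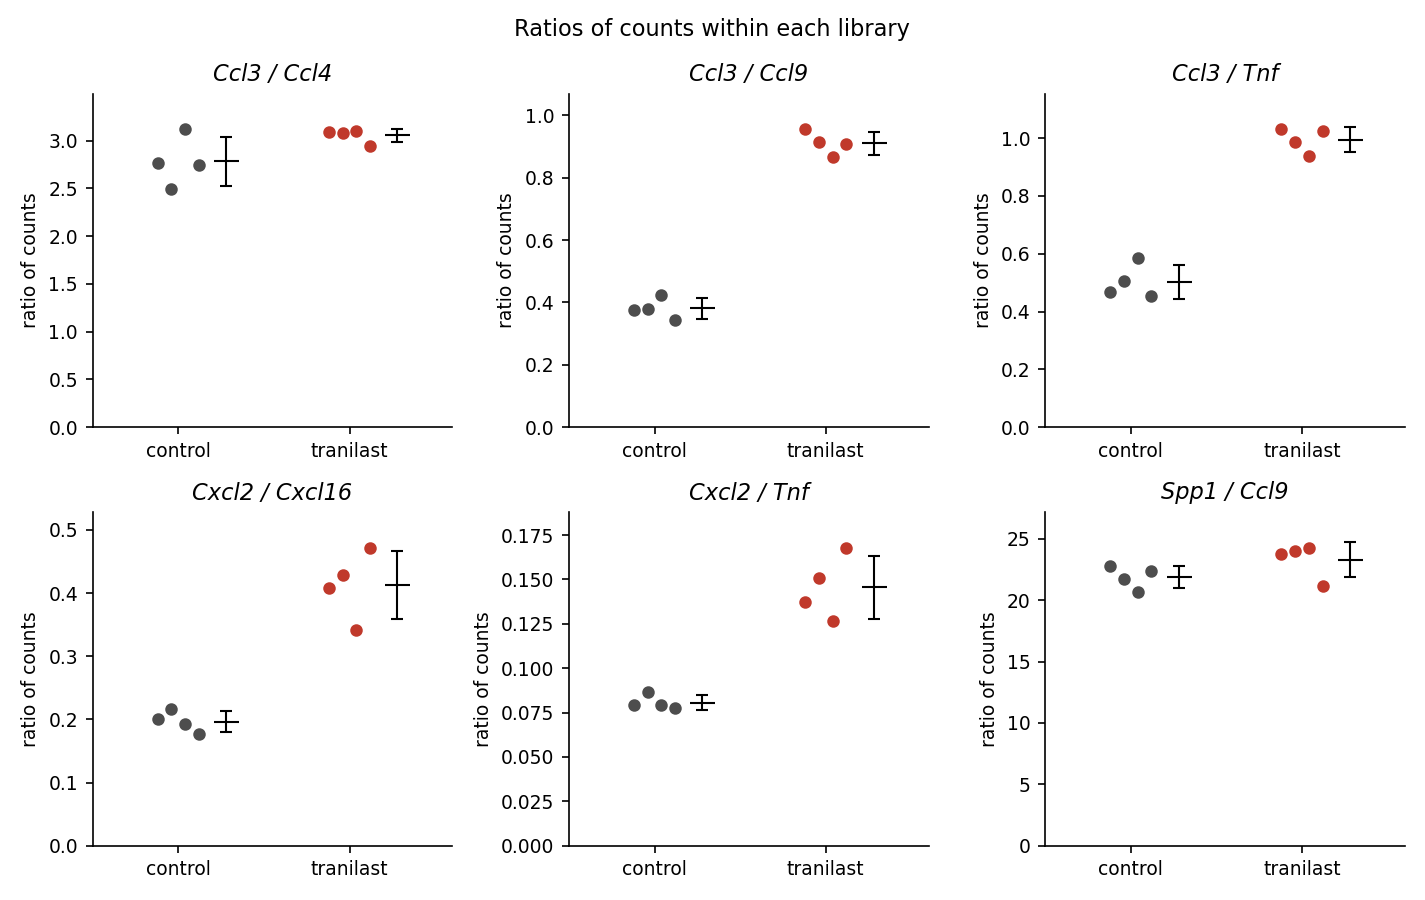
Ratio of 2 genes' counts within each library (y axis, from 0) for the 6 pairs compared, control in grey and tranilast in red, with the mean and SD beside the points. The 4 ratios of Ccl3 or Cxcl2 to Ccl9, Tnf or Cxcl16 did not overlap between groups, as the direction of the single genes requires, and the ratios Ccl3 to Ccl4 and Spp1 to Ccl9 did.

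The scaling moved the level of all genes. With library size alone, the median log2 fold change of all tested genes was higher by 0.117 than with TMM, and the share of called genes that were higher went from 49.5% to 70.9% (62.6% with upper-quartile factors and 70.5% on the FPKM scale). Ccl3, Ccl4 and Cxcl2 were higher and Ccl9, Cxcl16 and Spp1 lower under each of these scalings, at an adjusted p-value under 0.05 in each of 18 alternatives. The 3 higher genes lay further from the median of all genes than Ccl9, Cxcl16 and Spp1 did, at 0.65 or more against 0.46 or less on the log2 scale, where that median was 0.01.

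Levels of different genes were compared per length with the deposited FPKM. In the control libraries Spp1 was at 2862 ± 135 FPKM (SD, n = 4), Ccl3 at 92.3 ± 13.1, Tnf at 85.7 ± 4.37, Ccl9 at 61.5 ± 4.39, Ccl4 at 38.6 ± 5.58 and Cxcl16 at 26.2 ± 2.16. Cxcl2 followed at 9.69 ± 1.08, Il1rn at 6.95 ± 0.56, Ccl2 at 1.86 ± 1.10 and Ccl7 at 0.043 ± 0.086. Every neighbour in this order was separate except Ccl3 and Tnf, whose libraries overlapped. In the tranilast libraries Ccl3, at 173 ± 11 FPKM, was clear of Tnf, at 81.3 ± 2.49, and Ccl4, at 65.9 ± 4.81, was above Ccl9, at 48.4 ± 1.68. The other places kept their order, with Spp1 at 2399 ± 121 FPKM at the top and Ccl2 at 0.734 ± 0.427 and Ccl7 at 0.064 ± 0.128 at the bottom. On this scale Tnf overlapped between the groups.

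**Figure D4:**
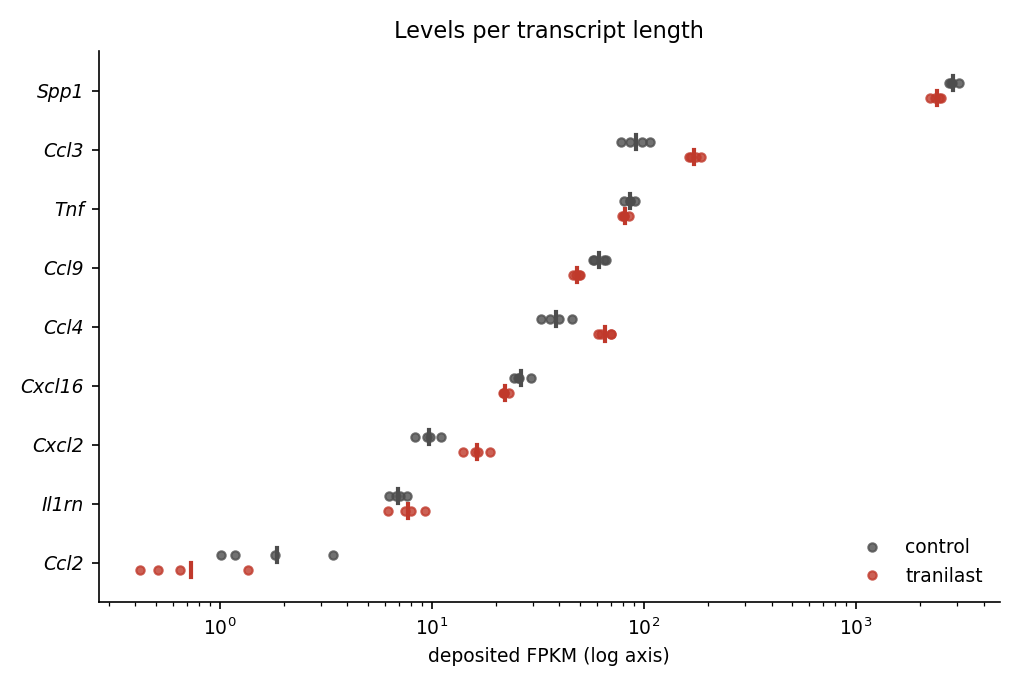
Deposited FPKM on a log axis of 9 of the genes in each library, control in grey and tranilast in red, with a bar at each group mean; Ccl7 is left out because 6 of its 8 values are 0. The values run from 0.419 FPKM in the lowest library of Ccl2 to 3054 FPKM in the highest of Spp1, and Ccl4 and Ccl9 change places between the groups.

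Most of the other chemokines had few or no counts in these libraries. Of 16 other CC chemokines, 8 had 0 counts in all libraries and 2 were tested, neither of which passed. Ccl25, the most abundant, had a log2 fold change of 0.33 (SE 0.25, edgeR adjusted p = 0.277), and Ccl5, which attracts T cells, one of 0.11 (SE 0.39, edgeR adjusted p = 0.831). Ccl6, which lies between Ccl9 and Ccl3 in the cluster, had 8 to 25 counts in the control and 5 to 13 in the tranilast libraries and was not tested. Of 14 other CXC, CX3C and XC chemokines in the table, 2 were tested and both were lower, where 28.8% of all tested genes were. Cxcl10, an interferon-induced chemokine for T cells, was at 16.9 ± 4.82 CPM in the control and 7.68 ± 3.45 CPM in the tranilast libraries (SD, n = 4 each, log2 fold change -1.14, SE 0.23, edgeR adjusted p = 3.3e-04), with overlapping groups. Cxcl14 was at 33.5 ± 1.88 and 21.3 ± 1.72 CPM (SD, n = 4 each, log2 -0.65, SE 0.072, edgeR adjusted p = 4.8e-07), with separate groups.

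Of 23 chemokine receptors, 6 were tested, of which 3 were lower and the others did not pass, a share of calls below the 57% of all tested genes. Their median log2 fold change was -0.26 against 0.01 over all tested genes. Ccr2, the receptor of Ccl2 and Ccl7, fell from 4.88 ± 0.36 to 2.73 ± 0.64 CPM (SD, n = 4 each, log2 -0.84, SE 0.19, edgeR adjusted p = 1.1e-03). Cxcr3, the receptor of Cxcl10, had a log2 fold change of -0.67 (SE 0.18, edgeR adjusted p = 3.7e-03). Cx3cr1, the fractalkine receptor of monocytes and macrophages, was the most abundant at 508 ± 11.4 and 427 ± 8.09 CPM (SD, n = 4 each, log2 -0.25, edgeR adjusted p = 2.4e-07). Ccr1 and Cxcr2, receptors of Ccl3 and Cxcl2, had few reads. Ccr1 had 5 to 18 counts in the control and 1 to 6 in the tranilast libraries, and Cxcr2 had at most 6 in any library. Cxcr6, the receptor of Cxcl16, had at most 2 counts.

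Of 31 other cytokines, 13 were tested, 2 were higher and 4 lower, again fewer than the 57% called among all tested genes, with a median log2 fold change of -0.25. Tnfsf9, the ligand of 4-1BB, was at 49.0 ± 3.20 CPM in the control and 76.2 ± 2.72 CPM in the tranilast libraries (SD, n = 4 each, log2 0.63, SE 0.052, edgeR adjusted p = 7.6e-09). Tnfsf12, or TWEAK, had a log2 fold change of 0.78 (SE 0.31, edgeR adjusted p = 0.0376) on 12 to 32 counts. Ltb, a TNF family member coded beside Tnf, fell from 58.9 ± 4.48 to 36.0 ± 0.86 CPM (SD, n = 4 each, log2 -0.71, SE 0.057, edgeR adjusted p = 7.1e-09). Mif, the most abundant cytokine of the list, had a log2 fold change of -0.40 (SE 0.034, edgeR adjusted p = 1.1e-08), and Tgfb1, the main fibrogenic cytokine, one of -0.25 (SE 0.030, edgeR adjusted p = 1.3e-06). Il6 had at most 1 count and Il1b at most 5 in any library. Adgre1, a surface receptor by which macrophages are recognized, was at log2 0.21 (SE 0.050, edgeR adjusted p = 2.0e-03) and Tlr4, the endotoxin receptor, at log2 0.21 (SE 0.048, edgeR adjusted p = 1.3e-03), both higher; these and Tgfb1, Il6 and Il1b are given because qPCR was run on them in liver.

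On the receiving side of Tnf and interleukin-1, 12 of 14 genes were tested, with 2 higher and 1 lower and a median log2 fold change of 0.04. That is well under the 57% called over the table. Tnfrsf1b, the second TNF receptor, rose from 23.7 ± 1.46 to 42.6 ± 2.42 CPM (SD, n = 4 each, log2 0.84, SE 0.065, edgeR adjusted p = 3.8e-09), and Ripk1, a kinase that relays TNF receptor signals, had a log2 fold change of 0.50 (SE 0.038, edgeR adjusted p = 2.6e-09). Tnfrsf1a, the first receptor, was at log2 -0.18 (SE 0.058, edgeR adjusted p = 0.0140). With library size alone the same list gave 4 higher and 0 lower, where 4613 of all 10770 tested genes were higher and 1893 lower. Adam10, the most abundant gene of this list, was at log2 -0.07 (SE 0.029, edgeR adjusted p = 0.0561). Il1r1 and Il1r2 had at most 1 count, so the receptor that Il1rn occupies was not detectable at this depth.

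Of 8 osteopontin receptors, 6 were tested, 5 were lower and 1 higher, beside 28.8% lower and 28.2% higher among all tested genes. Itga4, an integrin subunit for osteopontin and Vcam1, was at 2588 ± 78.6 CPM in the control and 1469 ± 76.5 CPM in the tranilast libraries (SD, n = 4 each, log2 -0.82, SE 0.031, edgeR adjusted p = 1.7e-13). Itga5 was at log2 -0.70 (SE 0.041, edgeR adjusted p = 7.7e-11) and Cd44 at -0.49 (SE 0.030, edgeR adjusted p = 1.4e-10). Itgb5 was the higher one at log2 0.31 (SE 0.056, edgeR adjusted p = 1.4e-04). The median log2 fold change of this list was -0.36, against 0.01 over all tested genes.

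All 10 genes of cytokine mRNA stability were tested, with 1 higher and 4 lower, near the 57% called over the table, and a median log2 fold change of -0.09. Hnrnpd, or AUF1, which binds AU-rich elements and speeds decay, was at 261 ± 10.7 CPM in the control and 118 ± 5.70 CPM in the tranilast libraries (SD, n = 4 each, log2 -1.14, SE 0.040, edgeR adjusted p = 5.0e-14). Elavl1, or HuR, which binds the same elements and stabilizes mRNA, was at log2 -0.50 (SE 0.033, edgeR adjusted p = 5.2e-10), and Rc3h2, a roquin that targets cytokine mRNA, at 0.20 (SE 0.043, edgeR adjusted p = 6.0e-04). Khsrp, the most abundant, was at -0.19 (SE 0.035, edgeR adjusted p = 1.7e-04). With library size alone, 3 were higher and 2 lower, beside 4613 higher and 1893 lower of all 10770 tested genes.

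**Figure D5:**
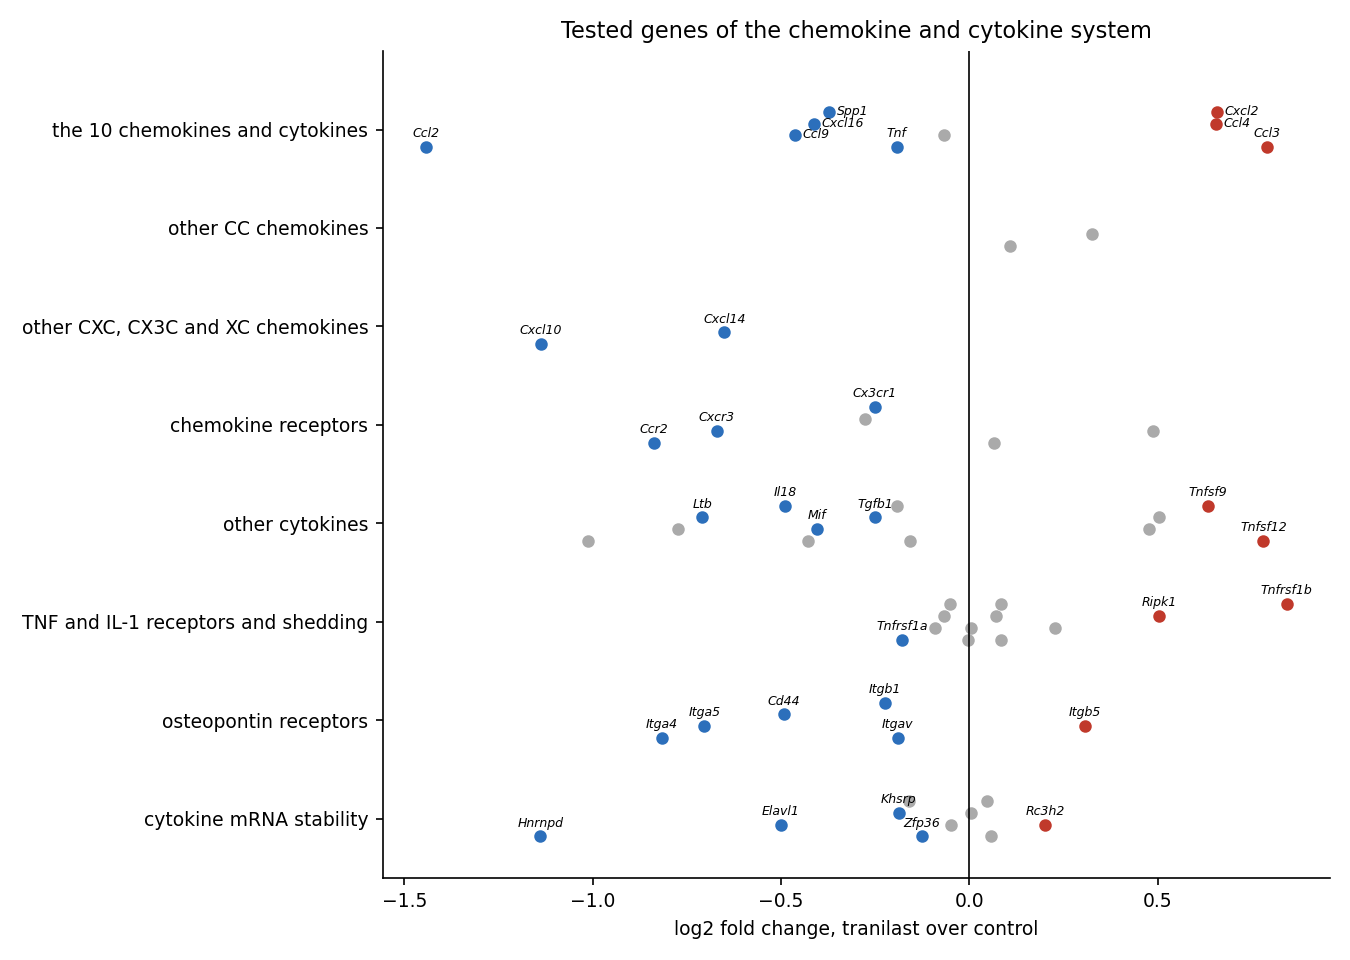
Log2 fold change of tranilast over control (x axis) for every tested gene of the 10 chemokines and cytokines and of 7 lists of the surrounding system (rows), red for higher, blue for lower and grey for genes that did not pass an adjusted p of 0.05, with called genes named. The vertical place within a row has no meaning, and the osteopontin receptors lie mostly to the left of 0, from -0.82 for Itga4 to 0.31 for Itgb5.

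Within a group, the same libraries tended to be high or low for several of the genes. Control library 2 was the highest of its group for 7 of the 9 tested genes, against 26.1% of all tested genes, and control library 4 was the lowest for 7 of the 9, against 22.4%. Tranilast library 1 was the highest for 6 of the 9, against 25.1%. These counts describe which libraries were high, and the part of this order in the differences was not tested beyond leaving out each library in turn. Without any single library, Ccl3 stayed between 0.72 and 0.87 on the log2 scale, Ccl4 between 0.58 and 0.75, Cxcl2 between 0.59 and 0.73, Ccl9 between -0.50 and -0.43, Cxcl16 between -0.44 and -0.39 and Spp1 between -0.40 and -0.33, each with an edgeR adjusted p under 0.05.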

How the data were processed

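RNA-seq libraries were grouped by the titles in the GEO labels, 4 control and 4 control with tranilast. The authors deposited, for each gene of the table, an estimated count and an FPKM value, which they had normalized for length and depth. The estimated count was whole for between 92.7% and 93.9% of all genes of the table, those with 0 counts included. The methods name poly-A selection and paired-end sequencing, and aligner, build and annotation are not given in the sources used here. Estimated counts were rounded to whole numbers, filtered with filterByExpr, scaled by TMM and compared in edgeR 4.0.16 by the quasi-likelihood test over 10770 genes with Benjamini-Hochberg adjustment. The design, lists and ratios are those of the 10 genes and 7 pathway lists. The genes and lists were chosen with earlier results of these data known. Of each list, the 3 largest called changes, the most abundant tested gene and the genes the study measured by qPCR were named, while Ccl6 and the untested receptors were named for their place beside the 10 genes. Ccl2 was also tested by an exact two-sided permutation test over the 8 libraries, of log2 CPM with 0.1 added. Ratios of counts within a library are given without a test. Intervals and limits of detection cover counting error or the spread between libraries only. The fit was tested on simulated counts of 10722 genes. It recovered 61 of 66 genes changed by 0.5 on the log2 scale and 67 of 67 changed by 1, with 7 false calls. Only 66, 67 and 66 genes were changed there, by 0.5, 1 and 2, whereas in the real libraries 57% of tested genes were called. The simulation therefore gives no rate of false calls for differences as widespread as those found here. Every simulated gene was also given the same dispersion, the spread beyond counting error. In the real control libraries the coefficient of variation, counting error included, was 59.6% for Ccl2 and 5.0% for Spp1. The numbers recovered therefore do not carry over to genes that vary more.

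Alternatives were RLE and upper-quartile factors, library size alone, DESeq2 1.42.0, limma-voom and limma trend on log2 FPKM (limma 3.58.1, with 1 or 0.1 added), other filters, a replicate block and leaving out each library. Positions are those of GENCODE M21 on GRCm38, matched by Ensembl identifier for 21973 of 22063 genes, and reads shared by paralogs or overlapping genes could not be separated. An item withheld for evaluation is not reported here. R 4.3.3, Python 3.11.15 and matplotlib were used.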

Additional observations from a re-analysis of the deposited data

Results flagged for a closer look

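Ccl7 stood out in both groups because a single library held all of its counts. In the control group library 1 had 2 counts and the others 0, and in the tranilast group library 4 had 3 counts and the others 0, so that the gap of the highest library to the next was 1 times the range of its group in each. With 3 of 4 libraries at 0 that value is 1 by construction. The rate of about 1 in 20 at which chance marks groups assumes continuous values and does not apply to Ccl7, which gave both marks among the 20 groups looked at. At this depth the counts of Ccl7 carry no difference between groups.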

How the results depend on the processing

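Ccl3, Ccl4, Cxcl2, Ccl9, Cxcl16 and Spp1 kept their direction and their call in all 18 alternatives. Cxcl16 fell in size to -0.23 on log2 FPKM with 1 added and -0.24 with 0.1 added. With 1 added, Ccl9 fell in size to -0.34 and Spp1 to -0.25, whereas Ccl3 grew to 0.91, Ccl4 to 0.76 and Cxcl2 to 0.70. Ccl2 was at -0.68 on log2 FPKM with 1 added. With a log2 fold change of 1.5 or more in size required, 120 genes of the table were called and 0 of the 10 genes, 0 as higher and 0 as lower. Ccl2 could not be tested with at least 10 counts required in every library, lost its call without control replicate 2, and leaving out each library in turn gave log2 fold changes from -1.92 to -0.97. The log2 fold change of Tnf was -0.076 with library size alone, -0.074 on log2 FPKM with 1 added and -0.075 with 0.1 added, at adjusted p-values between 0.115 and 0.149. Il1rn was reversed, without a call, at 0.00051 with upper-quartile factors, 0.049 with library size alone, 0.125 on log2 FPKM with 1 added and 0.139 with 0.1 added, and it ranged from -0.19 to 0.0065 when each library was left out in turn, reversed without tranilast replicate 3. The cause of these shifts was not tested.

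The labels name no pairing of the samples. The correlations of deviations between libraries of the same number across groups were -0.056, -0.044, 0.0077 and 0.107. They gave no sign of a pairing, and a pairing with small effects could be missed. With a replicate block 6009 genes were called, against 6143, and 8 of the 10 genes, 3 as higher and 5 as lower, as without it. Counting depth limits Ccl2 and Ccl7, and most chemokine receptors were too low to test.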

Other observations

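Some untested genes of the surrounding system, chosen after their values were seen, had counts that moved between the groups. Cxcr4, the receptor of Cxcl12, had 0 to 2 counts in the control libraries and 6 to 12 in the tranilast libraries. Lif, a cytokine of the interleukin-6 family, had 0 to 3 and 3 to 11 counts. Itgb3, an integrin subunit for osteopontin, had 2 to 5 and 0 to 1 counts. All were below the filter on low counts and carry no adjusted p-value. Without that filter 6252 genes of the whole table were called, against 6143 with it. Among them 1 chemokine receptor was higher and 4 lower, and 4 other cytokines were higher and 5 lower. These counts are no separate support for the genes picked here.

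Fcgr1, the high-affinity IgG receptor of macrophages, had the widest difference among the called macrophage markers, at 97.9 ± 18.9 CPM in the control and 36.5 ± 5.24 CPM in the tranilast libraries (SD, n = 4 each, log2 fold change -1.42, SE 0.11, edgeR adjusted p = 5.1e-09). Cd68 and Mpeg1 were higher by log2 0.16 and 0.20, and Itgam was lower by a log2 fold change of -0.28. Of the 10 tested macrophage markers, 3 were higher and 7 lower, beside 28.2% higher and 28.8% lower among all tested genes. Some of the lower ones were small, with Csf1r at -0.16, Lyz2 at -0.13, Lgals3 at -0.11 and Cd14 at -0.07. The scaling alone moved the median by 0.117. On mean FPKM, Csf1r (914 and 919), Cd14 (837 and 865) and Ptprc (64.3 and 65.6) were not lower with tranilast. Lyz2, Lgals3, Itgam and Fcgr1 stayed lower on that scale. The part of these markers in the chemokine and cytokine differences was not tested.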
